A study of Homo sapiens with 12 samples.

Results

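The high mobility group (HMG) proteins were followed at the level of mRNA and of ribosome-protected fragments (RPF) in proliferating (Pro) and senescent (Sen) cells of IMR90, a normal fibroblast line from fetal human lung. The genes were listed by symbol, with earlier results of these data known, and numbered 10 of the 38716 symbols in the tables. They comprised HMGB1, HMGB2 and HMGB3, HMGA1 and HMGA2, and HMGN1 to HMGN5. All cells were grown in the same serum-containing medium. The labels name no transgene or drug. However, the names of the RNA-seq tables of Pro, and not those of Sen, include letters close to a solvent's abbreviation. A vehicle given to Pro alone cannot be told apart from state, in mRNA or in RPF, since both came from the same lysates. Sen cells differed from Pro cells in having been passaged to replicative exhaustion. Ribo-seq and poly(A)-enriched RNA-seq libraries were made from 3 lysates per state, which gave 12 libraries in 4 groups of 3 replicates described as independent. The labels do not tie isolates of the line to individual samples, so isolate and state cannot be told apart.

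HMG proteins are abundant, non-histone components of chromatin. HMGB proteins carry paired HMG boxes that bend DNA, HMGA proteins bind the minor groove of AT-rich DNA through AT hooks, and HMGN proteins bind the nucleosome core particle. Members of all 3 families compete with linker histone H1 for nucleosomes. HMGB1 leaves the nucleus of senescent cells and acts outside the cell as an alarm signal, HMGB2 and HMGB3 are linked to proliferating and progenitor cells, and HMGA2 is a developmental gene whose mRNA is a well known target of the let-7 microRNAs. The loss of HMGB1 is the subject of the study, and the question addressed here is which relatives of HMGB1 moved with it and in which layer.

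Several of these genes have many processed copies in the genome, which bears on how short reads can be assigned. By GENCODE v44 on GRCh37, HMGB1 lies at chr13:31030841-31191734 on the minus strand, HMGB2 at chr4:174252527-174255583 on the minus strand and HMGB3 at chrX:150148982-150159244 on the plus strand. Of all footprint-sized windows of 30 bases in the HMGB1 coding sequence, 93.4% had an exact copy elsewhere in GRCh37, and the annotation lists 47 pseudogenes named after it. The share was 87.7% for HMGN2, 74.1% for HMGN1, 66.2% for HMGB3 and 57.3% for HMGA1. It was 7.7% for HMGN3, 6.7% for HMGB2, 2.0% for HMGN4 and 0% for HMGA2 and HMGN5. In windows of 50 bases, about the length of an RNA-seq read, the share was 83.3% for HMGB1, 79.9% for HMGN2, 56.7% for HMGN1, 26.9% for HMGA1, 24.2% for HMGB3 and 1.7% for HMGB2. How the authors placed reads with several matches is not given in the sources used here. CDS values that were not whole numbers, as fractional assignment leaves, numbered 11 of 12 for HMGN2, 10 for HMGB1, 9 for HMGA1, 7 for HMGN4, 6 for HMGB2, 5 for HMGB3 and for HMGN1, 3 for HMGA2 and 0 for HMGN3 and HMGN5. They did not follow the copied share in order, since HMGN1 had fewer than HMGN4. No window of 30 bases was shared between any pair of the 10 coding sequences. The nearest case was a run of 29 bases common to HMGB1 and HMGB2, shown here with the matching stretch of HMGB3, since these are the footprints of relatives that are hardest to separate. Capitals mark bases that differ from HMGB1, of which there is 1 in HMGB2 and 8 in HMGB3, and positions count from the first coding base.
HMGB1 coding bases 460 to 489: aaatatgaaaaggatattgctgcatatcga
HMGB2 coding bases 460 to 489: aaatatgaaaaggatattgctgcatatcgT
HMGB3 coding bases 454 to 483: aaGtatgaGaaggatGttgctgACtatAAG

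Depth in the 5′ UTR, CDS and 3′ UTR together ranged between 7902427 and 14144455 reads for RNA-seq. For Ribo-seq, reads in coding sequences (CDS) ranged between 54421 and 1718521, and Pro 1 and Sen 2, with 54421 and 54708, stood apart from the other 4 libraries, which held at least 583798. In these shallow libraries 3 reads correspond to about 55 CPM, the reads of a gene scaled to a common library size, so most members rest there on a handful of reads. RPF fold changes are given with and without them, while RPF ratios, shares and levels per length include them. Library sizes were scaled with TMM factors. Errors are SDs over 3 replicates for levels, shares and HMGB1 ratios, and SEs of the fit for changes on the log2 scale. The mRNA level sums the reads of 5′ UTR, CDS and 3′ UTR, and RPF counts CDS reads alone. A gene was called changed at an adjusted p-value under 0.15 in the quasi-likelihood test of edgeR, the false discovery rate in the published methods, with adjustment over all genes tested. In bulk libraries, fewer cells that express a gene and less RNA per cell cannot be told apart. Fibroblast genes were high in every library, with VIM from 3690 to 4270 CPM and COL1A1 from 11500 to 15000 CPM in mRNA. Of 5 epithelial and 4 endothelial markers, none exceeded 1.03 CPM in mRNA, SFTPC had no coding read, and CDH5 was at 0 in mRNA and reached 17.1 CPM in RPF of 1 library. Among immune markers, CD3E had no coding read, LYZ and PTPRC did not exceed 0.639 and 0.171 CPM in mRNA, although LYZ reached 33.5 CPM in RPF, and CD68, which fibroblasts also express, rose by 0.70 on the log2 scale and ranged from 18.9 to 34.1 CPM in mRNA. The state labels were matched by CDKN1A, an inhibitor of the cell cycle, at 504 ± 11.9 CPM in Pro and 1530 ± 61.7 in Sen (SD, n = 3), and by MKI67, a marker of cycling cells, at 149 ± 2.15 and 30.5 ± 2.04 CPM.

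At the mRNA level 6 of the 10 members fell in Sen, 2 rose and 2 were not called, beside 37.0% lower and 36.6% higher of the 12787 genes tested. Replicates of both states did not overlap for 8 members, which compares with 67.8% of all genes tested. The 6 members that fell were HMGB1, HMGB2, HMGB3, HMGN1, HMGN2 and HMGN3, and those that rose were HMGA2 and HMGN5. With CDS reads alone, the changes of HMGN3 (-0.21, adjusted p of 0.164) and HMGN5 (0.39, adjusted p of 0.286) were not called. In RPF, 9 members had enough reads to be tested, of which 7 fell, 1 rose and HMGA1 was not called, beside 26.9% lower and 27.5% higher of 7521 genes tested. Replicates did not overlap for 6 members in RPF, against 32.5% of all genes tested. The median log2 fold change was -0.53 for the 10 members tested in mRNA and -1.54 for the 9 tested in RPF. Over all genes tested it was -0.01 and 0.00. HMGN5, which rose in mRNA, was not tested in RPF, so the medians of the members cover unlike sets. With DESeq2 in place of edgeR, 5 members were called in RPF, and the calls lost were those of HMGA2, HMGN3 and HMGN4.

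**Figure D1:**
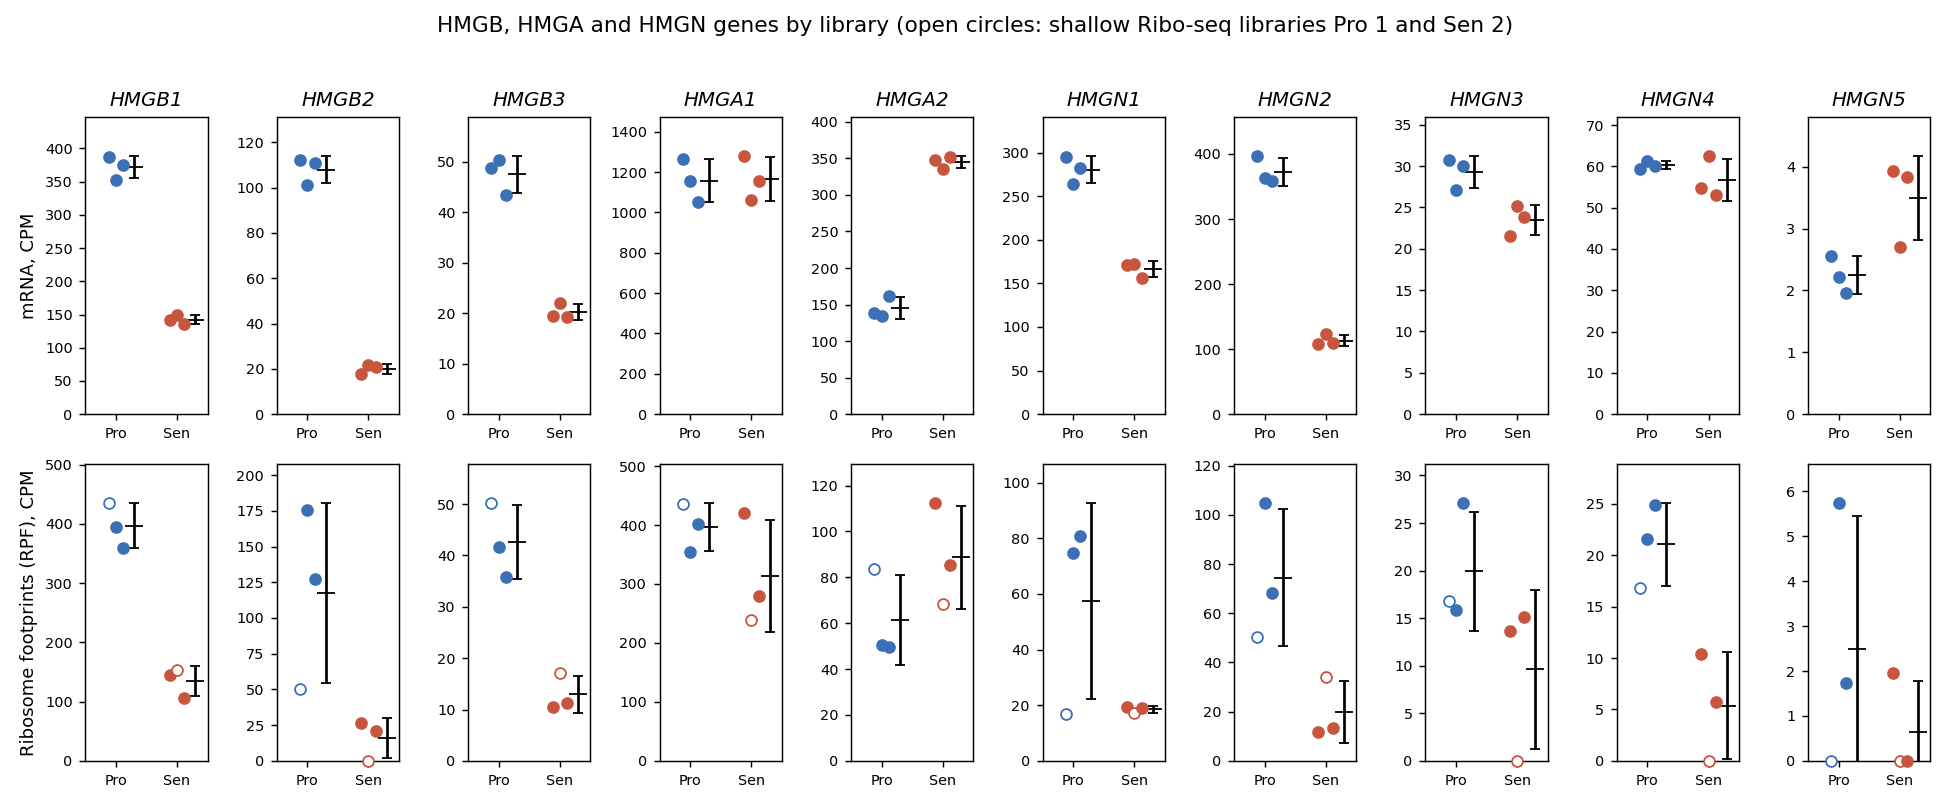
CPM of each member in the 3 Pro (blue) and 3 Sen (red) libraries, for mRNA in the upper row and RPF in the lower row, with bars for the mean and SD (cut at 0) and open circles for the shallow Ribo-seq libraries. Axes start at 0 and differ between panels. The mRNA points of HMGB1, HMGB2, HMGB3, HMGN1 and HMGN2 form separate groups with Sen below Pro, those of HMGA2 separate with Sen above Pro, and those of HMGA1 overlap.

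HMGB1 mRNA stood at 386, 353 and 376 CPM in Pro 1, 2 and 3 and at 143, 149 and 136 CPM in Sen 1, 2 and 3. All Sen libraries lay far below all Pro libraries. The level was 2.61-fold lower in Sen, a log2 fold change of -1.38 ± 0.07 (SE), with an adjusted p of 2.85e-13 in edgeR. HMGB1 footprints followed, at 436, 396 and 359 CPM in Pro and 145, 154 and 106 CPM in Sen, again without overlap. The shallow libraries rested on 26 HMGB1 reads in Pro 1 and 9 in Sen 2 after rounding, and their CPM lay near those of the deeper libraries. RPF was 2.90-fold lower, with a log2 fold change of -1.54 ± 0.17 and an adjusted p of 6.90e-12 in edgeR, and without both shallow lysates the change was -1.52 with an adjusted p of 2.82e-08.

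HMGB2, a close relative of HMGB1 whose expression is tied to the cell cycle, showed the larger loss. Its mRNA stood at 112, 101 and 111 CPM in Pro and at 17.5, 21.9 and 20.6 CPM in Sen. The groups were far apart, and the mRNA level was 5.34-fold lower, a log2 fold change of -2.42 ± 0.09 with an adjusted p of 9.77e-16. HMGB2 footprints stood at 50.3, 176 and 127 CPM in Pro and at 26.7, 0 and 20.8 CPM in Sen, where the 0 belongs to the shallow Sen 2. The highest Sen value lay below the lowest Pro value, and that lowest Pro value came from 3 reads in the shallow Pro 1. In RPF the log2 fold change was -2.54 ± 0.24 with an adjusted p of 2.11e-14, and -2.54 without both shallow lysates.

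HMGB3, which is known for its role in blood progenitors, was the least abundant of the 3 HMGB mRNAs when all regions were summed in Pro. It stood at 48.7, 50.4 and 43.4 CPM in Pro and at 19.4, 21.97 and 19.2 CPM in Sen, without overlap. The mRNA log2 fold change was -1.23 ± 0.09 with an adjusted p of 1.53e-10. Footprints of HMGB3 stood at 50.3, 41.7 and 35.8 CPM in Pro and 10.4, 17.1 and 11.4 CPM in Sen, and the highest of the Sen values rests on 1 read. HMGB3 RPF had a log2 fold change of -1.81 ± 0.36 with an adjusted p of 2.57e-05, and -1.82 without both shallow lysates. All 3 HMGB genes therefore passed the test in the same direction in both layers.

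The HMGA genes parted ways. HMGA1, at chr6:34204650-34214008 on the plus strand, was the most abundant member in mRNA and stood at 1263, 1156 and 1051 CPM in Pro and 1280, 1062 and 1158 CPM in Sen. The groups overlapped almost entirely. The mRNA log2 fold change was 0.01, with a 95% interval from -0.15 to 0.18 and an adjusted p of 0.905, and its sign turned to -0.09 when libraries were scaled by their totals without TMM factors. Under that scaling the median of all genes moved by -0.105 for mRNA and -0.139 for RPF. HMGA1 footprints stood at 436, 354 and 401 CPM in Pro and 421, 239 and 280 CPM in Sen, where the lowest value was that of the shallow Sen 2. The RPF log2 fold change was -0.15, with an interval from -0.47 to 0.17 and an adjusted p of 0.482. Without both shallow lysates the change was -0.071, with an adjusted p of 0.727. HMGA1 RPF was called lower with library totals (-0.28, adjusted p of 0.131) and without Sen 1 (-0.49, adjusted p of 0.107). It was also called under a filter of 10 counts in each library, where its unadjusted p in edgeR was not under 0.05.

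HMGA2, at chr12:66218240-66360071 on the plus strand, rose. Its mRNA stood at 139, 134 and 162 CPM in Pro and at 348, 336 and 351 CPM in Sen, so every Sen library lay above every Pro library. The level was 2.38-fold higher in Sen, a log2 fold change of 1.25 ± 0.08 with an adjusted p of 5.38e-12. Footprints of HMGA2 stood at 83.8, 50.3 and 49.7 CPM in Pro and at 113, 68.4 and 85.2 CPM in Sen. These groups overlapped through the shallow libraries, which held 5 reads in Pro 1 and 4 in Sen 2, and did not overlap in the other 4. Its RPF log2 fold change was 0.99 ± 0.21 with an adjusted p of 7.24e-05 in edgeR, and 1.05 with an adjusted p of 0.000148 without both shallow lysates. With DESeq2 in place of edgeR the RPF change of 0.79 missed the threshold at an adjusted p of 0.287.

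The let-7 microRNAs act on HMGA2 through its 3′ UTR, and the sites are shown because HMGA2 is the member whose mRNA rose most. The mature sequence of let-7a-5p from RefSeq is given with its seed, bases 2 to 8, in capitals, and the same seed is carried by all 9 let-7 family members in the table. The 3′ UTR of the HMGA2 transcript in GENCODE v44 on GRCh37 spans 2999 bases and holds 4 stretches complementary to that seed, in capitals below with the 15 bases before and 1 base after, and with positions from the first base of the 3′ UTR.
let-7a-5p: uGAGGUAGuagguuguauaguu
HMGA2 3′ UTR bases 6 to 28: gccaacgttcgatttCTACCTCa
HMGA2 3′ UTR bases 1241 to 1263: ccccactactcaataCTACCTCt
HMGA2 3′ UTR bases 1653 to 1675: ttgacttgcaaagacCTACCTCc
HMGA2 3′ UTR bases 2506 to 2528: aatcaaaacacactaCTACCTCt
HMGA1 held 1 such stretch in its 3′ UTR and the other 8 members held 0, while 9.7% of 19063 transcripts with a 3′ UTR held at least 1. Mature microRNAs were not measured in these libraries, and a match in these letters is no measure of repression.

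Genes that act on let-7 or on HMGA2 mRNA were described from a list of 8, of which 6 could be tested in mRNA. Among these, 4 fell and 2 rose in mRNA, and 3 fell and 1 rose in RPF, beside 37.0% lower and 36.6% higher of all genes in mRNA and 26.9% and 27.5% in RPF. IGF2BP3, an RNA-binding protein that stabilises HMGA2 mRNA, rose from 82.3 ± 4.79 to 108 ± 3.92 CPM in mRNA (SD, n = 3) with a log2 fold change of 0.39 and an adjusted p of 7.49e-05, while its RPF fell by 0.39 with an adjusted p of 0.0792. IGF2BP2, of the same family, fell from 139 ± 7.35 to 89.5 ± 6.91 CPM in mRNA, with log2 fold changes of -0.63 in mRNA and -0.75 in RPF. DROSHA, which cuts primary microRNAs in the nucleus, fell by 0.54 in mRNA on the log2 scale. Its RPF was called lower in the fit (-0.66, adjusted p of 0.0480), while its mean RPF level was 36.8 ± 32.5 CPM in Pro and 43.7 ± 21.4 CPM in Sen, the other way round. DICER1, which cuts microRNA precursors in the cytoplasm, rose by 0.23 in mRNA (adjusted p of 0.00995) and by 0.54 in RPF (adjusted p of 0.128). DIS3L2, which degrades uridylated let-7 precursors, fell by 0.51 in mRNA. LIN28A and LIN28B, which block let-7 maturation, had no coding read in any library.

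Among the HMGN genes, HMGN2 showed the largest loss. HMGN2 lies at chr1:26798931-26803133 on the plus strand, and its mRNA stood at 397, 363 and 358 CPM in Pro and at 108, 122.8 and 109 CPM in Sen. The groups were clearly apart, with a level 3.29-fold lower in Sen and a log2 fold change of -1.72 ± 0.08 (adjusted p of 2.27e-14). Footprints of HMGN2 stood at 50.3, 105 and 68.2 CPM in Pro and at 11.7, 34.2 and 13.3 CPM in Sen, and both the lowest Pro and the highest Sen value came from shallow libraries with 3 and 2 reads. The RPF log2 fold change was -2.64 ± 0.31 with an adjusted p of 2.89e-11, and -2.74 without both shallow lysates.

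HMGN1, at chr21:40714241-40721573 on the minus strand, fell less in mRNA. It stood at 295, 264 and 283 CPM in Pro and at 172, 172 and 157 CPM in Sen, without overlap, and its mRNA log2 fold change was -0.75 ± 0.07 with an adjusted p of 7.37e-09. HMGN1 footprints stood at 16.8, 74.8 and 80.9 CPM in Pro and at 19.5, 17.1 and 18.9 CPM in Sen. The shallow Pro 1, with 1 read, lay at the level of the Sen libraries, and the other Pro libraries lay far above all of them. The RPF log2 fold change was -1.98 ± 0.28 with an adjusted p of 9.73e-09, and -2.02 with an adjusted p of 5.89e-07 without both shallow lysates.

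HMGN3 and HMGN4 are less abundant relatives of HMGN1 and HMGN2. HMGN3, at chr6:79910962-79944406 on the minus strand, stood at 30.7, 27.1 and 30.1 CPM in Pro mRNA and at 21.6, 25.1 and 23.8 CPM in Sen mRNA. The groups did not overlap, although the gap between them was small, and the mRNA log2 fold change was -0.31 ± 0.09 with an adjusted p of 0.00749. HMGN3 footprints stood at 16.8, 15.8 and 27.2 CPM in Pro and at 13.7, 0 and 15.1 CPM in Sen, with 1 read in Pro 1 and 0 in Sen 2. The RPF log2 fold change of -0.77 ± 0.37 passed the threshold at an adjusted p of 0.0882 in edgeR, and at 0.101 without both shallow lysates (-0.73), and missed it without Sen 1 (0.405), without Sen 3 (0.167), and in DESeq2 (0.721).

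HMGN4, at chr6:26538594-26547161 on the plus strand, differed between the layers. Its mRNA stood at 59.4, 61.3 and 60.1 CPM in Pro and at 54.8, 62.5 and 53.1 CPM in Sen, and the Pro values lay inside the range of the Sen values. The mRNA log2 fold change was -0.08, with a 95% interval from -0.24 to 0.07 and an adjusted p of 0.376, and it was called lower with library totals (-0.19, adjusted p of 0.0439) and without Sen 2 (-0.17, adjusted p of 0.0605). HMGN4 footprints stood at 16.8, 21.6 and 24.8 CPM in Pro and at 10.4, 0 and 5.68 CPM in Sen. All Sen values lay below all Pro values, on reads after rounding that numbered 1, 15 and 43 in Pro and 16, 0 and 3 in Sen. The RPF log2 fold change was -1.40 ± 0.40 with an adjusted p of 0.00336 in edgeR, 0.00531 without both shallow lysates, and 0.365 in DESeq2, and without Sen 1 the change was -2.15.

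HMGN5, at chrX:80369198-80457412 on the minus strand and the largest HMGN protein by coding length, was close to the detection limit. It held 21, 26 and 21 mRNA reads in Pro and 37, 37 and 42 in Sen, that is 2.56, 2.22 and 1.95 CPM in Pro and 3.93, 2.71 and 3.84 CPM in Sen. The Sen libraries lay above the Pro libraries, with a log2 fold change of 0.62 ± 0.22 and an adjusted p of 0.0175. With 7 footprints in all Pro libraries and 3 in all Sen libraries, RPF of HMGN5 was too low to be tested.

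**Figure D2:**
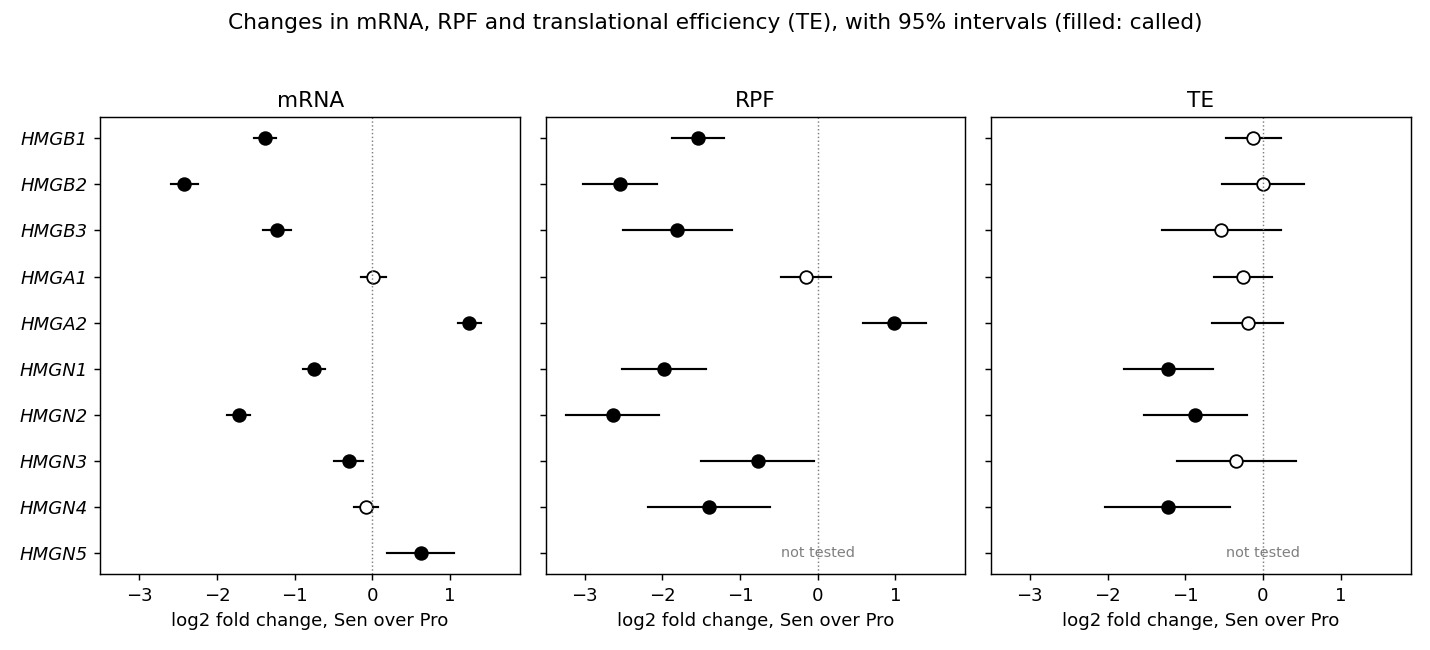
Log2 fold changes of Sen over Pro with 95% intervals for mRNA, RPF and translational efficiency, with 1 row per member and filled circles for called changes. HMGB1, HMGB2 and HMGB3 lie left of 0 in mRNA and RPF and have TE intervals that include 0, whereas HMGN1, HMGN2 and HMGN4 lie left of 0 in TE.

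Translational efficiency (TE), the ratio of RPF to mRNA, was compared between the states in a single model over all 12 libraries, with the lysate as a block. The change in TE was called lower for HMGN1, HMGN2 and HMGN4 and higher for 0 of the 9 members tested, beside 3.73% lower and 6.32% higher of 7473 genes tested. By ratios with nothing added, replicates of the states did not overlap for HMGB3 and HMGN4, against 16.8% of all genes tested. With 0.5 added to each count, the log2 ratio of HMGN4 was -1.24, -1.46 and -1.26 in the Pro lysates and lay between -2.35 and -3.00 in the Sen lysates, with -2.87 in the shallow Sen 2. Sen 2 held 0 HMGN4 footprints, so that its ratio is set by the added 0.5, and Pro 1 held 1, so neither shallow lysate can show whether the states are apart. The TE change of HMGN4 was -1.23 ± 0.41 with an adjusted p of 0.0794, and -1.21 with an adjusted p of 0.0679 without both shallow lysates. For HMGN1 the log2 ratio was -3.55, -1.80 and -1.80 in Pro and -3.11, -2.74 and -2.98 in Sen. The shallow Pro 1 lay below all Sen lysates and the other Pro lysates lay above them. The TE change of HMGN1 was -1.22 ± 0.29 with an adjusted p of 0.00759, and -1.28 with an adjusted p of 0.00426 without both shallow lysates. For HMGN2 the log2 ratio was -2.76, -1.78 and -2.39 in Pro and -3.16, -1.52 and -2.94 in Sen, which overlap. The TE change of HMGN2 was -0.87 ± 0.34 with an adjusted p of 0.134, and it was also lost with unrounded values (0.156) or with CDS reads alone as mRNA (0.156). The paper, using another method (anota2seq) on these libraries, names HMGN2 among transcripts whose translation rose against a fall in mRNA. That direction is opposite to the TE change of HMGN2 given here.

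These TE calls were not stable to the choice of test and libraries. DESeq2, with the same design, called 0 of the 9 members, with an adjusted p of 0.999 for HMGN1, HMGN2 and HMGN4, although its fold changes of -1.10, -0.79 and -1.35 lay near those of edgeR. At an unadjusted p under 0.05, DESeq2 found 2 members, HMGN1 and HMGN4, and edgeR found 3. Without Pro 3, or without Sen 1, edgeR called 0 members, each time with 2 members at an unadjusted p under 0.05, and without Pro 2, or without Sen 3, it called HMGN1 alone. The TE change of HMGN4 was -2.02 without Sen 1. The HMGN1 and HMGN2 coding sequences are largely shared with copies elsewhere, as given above, whereas that of HMGN4 has 2.0% of its windows copied. The part of read placement in these changes was not tested.

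**Figure D3:**
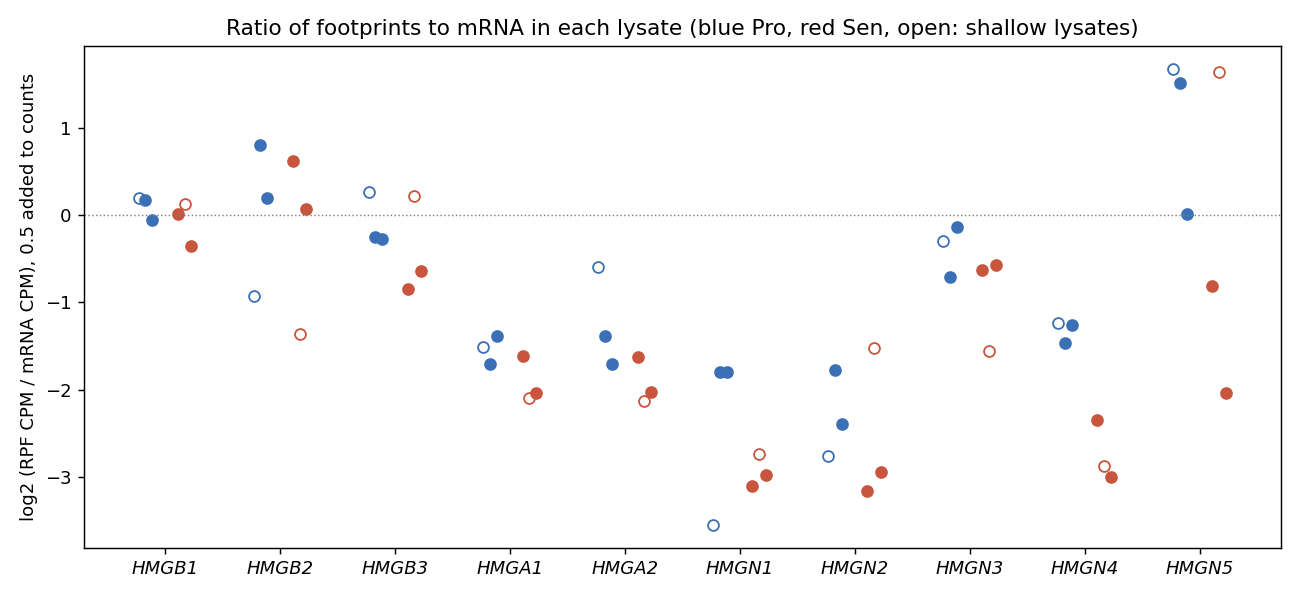
Log2 ratio of RPF CPM to mRNA CPM in each lysate, with 0.5 added to counts, for Pro (blue) and Sen (red), and open circles for the shallow lysates Pro 1 and Sen 2. HMGB1 lies between -0.35 and 0.20 in all lysates, and HMGN4 has its 3 Sen points below its 3 Pro points, the Sen 2 point being set by the added 0.5.

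For the other members, TE changes did not pass the test. The log2 ratio of HMGB1 was 0.20, 0.17 and -0.06 in Pro and 0.02, 0.13 and -0.35 in Sen, with overlapping groups. The TE change of HMGB1 was -0.12, with a 95% interval from -0.48 to 0.23 and an adjusted p of 0.762. For HMGB2 the change was 0.00, with a wider interval from -0.52 to 0.53, and its sign turned under several other settings. HMGB3, HMGA1, HMGA2 and HMGN3 had TE changes of -0.54, -0.26, -0.20 and -0.34, and each interval included 0. HMGN3 and HMGB3 had the widest of these intervals, from -1.11 to 0.42 and from -1.30 to 0.23.

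With reads of the coding sequence and of the UTRs taken apart, most members changed alike in both. In CDS reads of RNA-seq, 5 of 10 members fell and 1 rose, beside 34.9% lower and 34.9% higher of 12046 genes tested. In 3′ UTR reads, 6 of the 9 members tested fell and 1 rose, beside 28.4% lower and 27.6% higher of 9731 genes tested. HMGB1 had a log2 fold change of -1.39 ± 0.09 in CDS reads and -1.31 ± 0.11 in 3′ UTR reads, and HMGA2 had changes of 1.12 ± 0.10 and 1.30 ± 0.10. HMGN4 fell slightly in 3′ UTR reads, by 0.25 with an adjusted p of 0.0600, and had a change of 0.03 with an adjusted p of 0.849 in CDS reads. That call of HMGN4 was lost without Pro 2 (0.207), without Sen 1 (0.229) or without Sen 3 (0.163).

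The ratio of 3′ UTR to CDS reads was tested for 9 members, and HMGB3 was the only member called, beside 1.72% higher and 0.862% lower of 9397 genes tested. Groups of replicates did not overlap in this ratio for 1 member, against 14.6% of all genes tested. Reads in the 3′ UTR made up 45.1%, 45.2% and 41.8% of HMGB3 mRNA reads in Pro and 55.0%, 54.7% and 59.9% in Sen. The Sen libraries all lay above the Pro libraries, and the CDS share was 46.9% ± 0.89 in Pro and 35.7% ± 6.03 in Sen (SD, n = 3). The ratio rose by 0.67 ± 0.19 on the log2 scale, with an adjusted p of 0.110 in edgeR and 0.422 in DESeq2. It missed the threshold with library totals (0.171), without Pro 2 (0.231), without Sen 1 (0.228) and without Sen 3 (0.543). HMGB3 fell by 1.59 in CDS reads and by 0.96 in 3′ UTR reads, so both regions fell and the CDS fell more. In HMGB1 the 3′ UTR share was 23.8%, 24.6% and 29.6% in Pro and 26.1%, 29.9% and 31.3% in Sen, with overlap. HMGA2 had a share of 61.7% ± 1.85 in Pro and 68.0% ± 3.57 in Sen, without overlap, although its ratio of 3′ UTR to CDS reads, changed by 0.23 ± 0.12, was not called (adjusted p of 0.615).

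**Figure D4:**
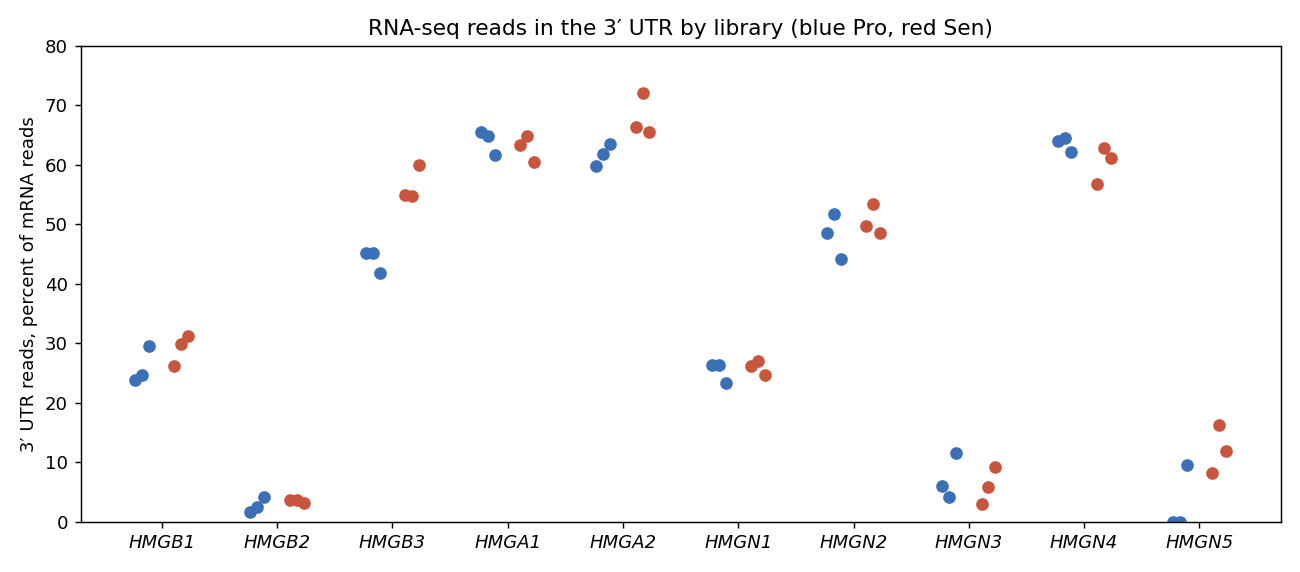
Share of each member's RNA-seq mRNA reads that lay in the 3′ UTR, in percent, with 1 point per library for Pro (blue) and Sen (red). HMGB3 and HMGA2 are the members whose Sen points all lie above their Pro points, HMGB2 stays under 5%, and HMGN5 rests on 42 or fewer reads per library.

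Ribosome footprints were also counted outside the coding sequence. In Pro, HMGA1 held 134 footprints in its 5′ UTR beside 967 in its CDS, and HMGA2 held 15 beside 126. These made up 11.9% and 10.4% of their footprints, against 3.2% over all genes, and the share was 11.1% for HMGN2 and 8.4% for HMGN4. In Sen the shares were 6.2% for HMGA1, 4.1% for HMGA2, 6.5% for HMGN2 and 5.7% for HMGN4, against 9.3% over all genes. HMGB1 had 3.6% in Pro and 1.5% in Sen. HMGN4 in Sen held 14 footprints in its 3′ UTR beside 19 in its CDS, and 6 beside 59.3 in Pro. The share of 3′ UTR footprints over all genes was not computed, so these counts have no comparison. Ribo-seq libraries differed widely in the share of reads in the CDS, from 40.6% in Sen 2 to 95.8% in Pro 3, and these UTR values were not tested.

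HMGB1 was next set against each relative within the same library, as the log2 ratio of their CPM, and the ratios were compared between the states by an exact two-sided permutation test. With 3 libraries against 3, the smallest p that this test can give is 0.1, and over the 17 pairs compared in both layers this adjusts to 0.17. No pair could therefore pass the threshold of 0.15, and the differences are given as descriptions. In mRNA, 8 of the 9 ratios reached the smallest p without overlap of the groups, beside 94.8% of the ratios of HMGB1 to all 12786 other genes tested. The ratio of HMGB1 was lower in Sen for 6 of these relatives. Its ratio to HMGA2 turned over, from 1.36 ± 0.14 in Pro to -1.28 ± 0.10 in Sen (SD, n = 3), a difference of -2.64, so that HMGB1 mRNA was the higher of both in Pro and the lower in Sen. Against HMGN5, HMGA1, HMGN4 and HMGN3 the differences were -2.00, -1.40, -1.30 and -1.07, and against HMGN1 the difference was -0.63. The ratio was higher in Sen against HMGB2, by 1.05, and against HMGN2, by 0.34. The ratio of HMGB1 to HMGB3 changed by -0.15 with overlapping groups (exact permutation p = 0.3), and with CDS reads alone the sign turned to 0.24.

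In RPF the ratio of HMGB1 to HMGA1 went from 0.00 ± 0.16 in Pro to -1.18 ± 0.50 in Sen and that to HMGA2 from 2.69 ± 0.37 to 0.58 ± 0.43. These were the only 2 of 8 pairs whose RPF groups did not overlap (exact permutation p = 0.1), beside 73.5% of the ratios of HMGB1 to all other genes tested in RPF. Against HMGB2 and HMGN2 the RPF differences of 1.13 and 0.40 had the direction of the mRNA, with overlap. Against HMGB3, HMGN1 and HMGN4 the RPF differences were 0.03, -0.24 and -0.04, beside SDs of up to 1.09 within a state, and their signs turned when single lysates were left out. The ratio of HMGB1 to HMGN4 thus moved by -1.30 in mRNA and by -0.04 in RPF.

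**Figure D5:**
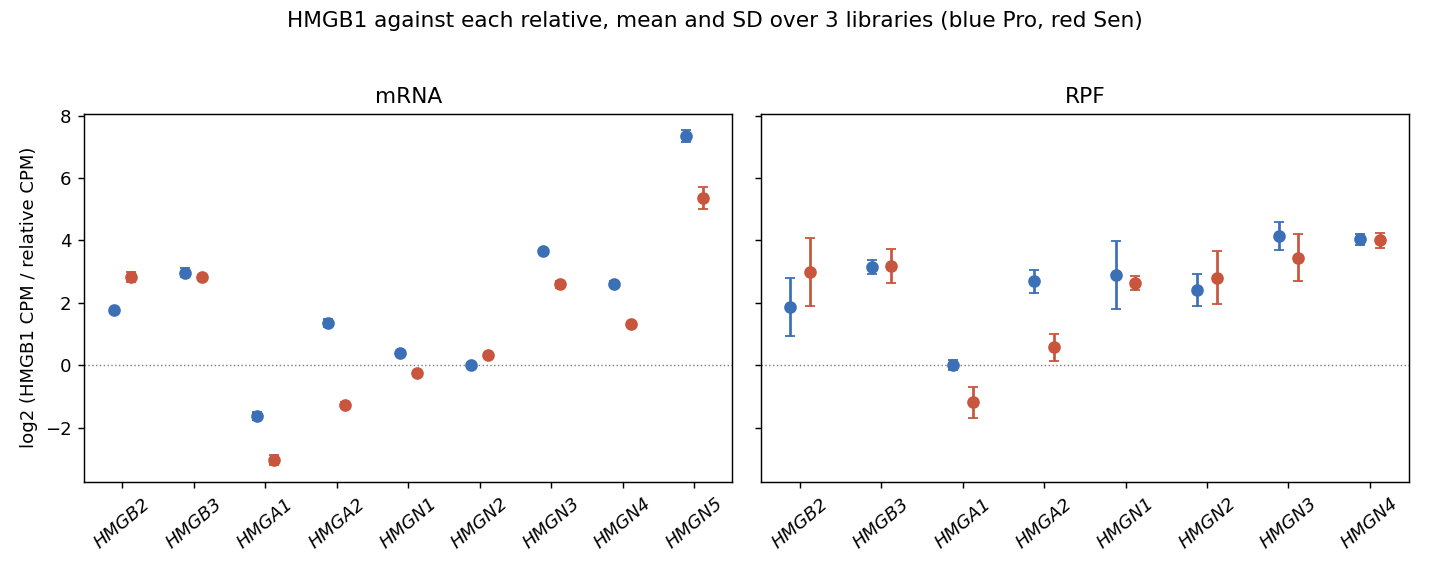
Log2 ratio of HMGB1 CPM to the CPM of each relative, as mean and SD over 3 libraries, for Pro (blue) and Sen (red), in mRNA and RPF. In mRNA the ratio to HMGA2 passes from above 0 to below 0, and those to HMGB2 and HMGN2 are higher in Sen.

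Levels were compared between members per kilobase (kb) of coding sequence. The share of windows of 50 bases with a copy elsewhere differs widely between them, from 83.3% for HMGB1 to 0% for HMGA2. The part of read placement in these levels and their order was not tested. In CDS reads of RNA-seq from Pro, HMGA1 came first at 1186 ± 106 CPM per kb, followed by HMGN1 at 710 ± 55.7, HMGB1 at 482 ± 45.0, HMGN2 at 445 ± 50.7, HMGB2 at 204 ± 13.2 and HMGA2 at 134 ± 14.8. The ranges of HMGB1 and HMGN2 overlapped, as did those of HMGN3, HMGN4 and HMGB3 in turn, at 68.8, 62.9 and 57.7 CPM per kb, and HMGN5 was lowest at 2.50. In Sen the order was HMGA1 at 1229 ± 173, HMGN1 at 423 ± 43.6, HMGA2 at 290 ± 33.1, HMGB1 at 184 ± 17.3 and HMGN2 at 126 ± 14.9 CPM per kb, none overlapping with the next. HMGA2 had moved above HMGB1 and HMGN2, and HMGB2, at 38.1 ± 5.13, had moved below HMGN4 and HMGN3. In footprints per kb, HMGB1 came next after HMGA1 in Pro at 613 ± 59.1, and after HMGA1 and HMGA2 in Sen at 208 ± 39.2, where its range overlapped that of HMGA2 at 269 ± 67.6. HMGA1 was first in both states, at 1225 ± 127 and 967 ± 293 CPM per kb.

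Within the families, the composition differed between the states in CDS reads of RNA-seq per kb, where the part of read placement was not tested either. HMGB1 made up 64.8% ± 1.37 of the summed HMGB level in Pro and 76.4% ± 1.75 in Sen, and HMGB2 27.4% ± 1.30 and 15.9% ± 2.26 (SD, n = 3). In these RNA-seq reads the share of HMGB1 in its family was therefore larger in Sen, while its level was lower. In footprints HMGB1 made up 70.7% ± 8.71 of the HMGB level in Pro and 81.4% ± 7.04 in Sen, with overlap. Footprint shares of HMGB2 and HMGB3 overlapped as well. HMGA2 made up 10.2% ± 1.56 of the HMGA level in Pro and 19.1% ± 0.44 in Sen, and in footprints 13.0% ± 2.60 and 21.9% ± 1.09, in both cases without overlap. Of the HMGN level, HMGN2 made up 34.5% ± 2.08 in Pro and 18.6% ± 0.53 in Sen, and HMGN1 55.1% ± 2.44 and 62.7% ± 0.16. Footprint shares of the HMGN genes overlapped between the states for each of them.

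The genes whose mRNA profile over the 6 RNA-seq libraries lay nearest to that of HMGB1, by the root-mean-square difference of centred log2 CPM, were HNRNPDL, SULF1, PRTFDC1, NCAPG and PAICS, at differences from 0.0414 to 0.0557. HNRNPDL, an RNA-binding protein, stood at 196 CPM in Pro and 74.8 in Sen. NCAPG, a condensin subunit needed in mitosis, stood at 47.5 and 17.9, and PAICS, an enzyme of purine synthesis, at 212 and 86.7. SULF1, which edits heparan sulfate outside the cell, stood at 671 and 264. With only 6 libraries in 2 states, such likeness mostly reflects a similar difference between the states.

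Other genes with an HMG box were described from a list of 27, of which 25 were tested in mRNA. Among these, 16 fell, 2 rose and 7 were not called, with a median log2 fold change of -0.37, beside 37.0% lower and 36.6% higher of all genes. In RPF, 6 of 17 were called lower, HMGXB4 among them with a higher mean CPM in Sen, and 2 were called higher, HMG20B among them with a lower mean CPM in Sen, with a median of -0.15, beside 26.9% and 27.5% of all genes. SOX11, a developmental transcription factor, fell from 21.0 ± 1.17 to 1.27 ± 0.10 CPM in mRNA and by 2.37 on the log2 scale in RPF, and TOX, a nuclear factor known from T cells, fell from 11.7 ± 1.39 to 2.44 ± 0.21 CPM in mRNA. SSRP1, a subunit of the histone chaperone FACT, fell from 199 ± 13.7 to 67.1 ± 6.54 CPM, with log2 fold changes of -1.56 in mRNA and -1.37 in RPF. TCF7, a partner of beta-catenin, fell from 6.37 ± 1.94 to 1.99 ± 0.51 CPM in mRNA. SOX9 rose in both layers, by 1.14 and 1.27.

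Receptors and binding partners of extracellular HMGB1 were mostly low. Of 13, 7 were tested in mRNA, of which 2 fell and 3 rose, close to the 37.0% and 36.6% of all genes. AGER, the receptor for advanced glycation end products, and TLR2 did not exceed 1 CPM on average in either state. TLR4 rose from 0.0595 ± 0.0517 CPM in Pro to an average of 4.8 CPM in Sen. CXCR4 was at 0 in all Pro libraries and at 1.77 ± 0.44 CPM in Sen, and THBD, which sequesters HMGB1, rose from 0.263 ± 0.301 to 1.41 ± 0.45 CPM. SDC1, a heparan sulfate proteoglycan, fell from 46.3 ± 0.97 to 14.4 ± 3.01 CPM, and by 0.96 on the log2 scale in RPF. TLR4, CXCR4 and THBD had too few footprints to be tested.

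Genes that modify HMGB1 or bring it out of the nucleus or the cell numbered 14, all tested in mRNA. Of these 11 fell, 1 rose and 2 were not called, with a median log2 fold change of -0.63, and in RPF 6 of 9 were called lower, PRKCA among them with a higher mean CPM in Sen, beside 37.0% and 26.9% lower of all genes. XPO1, the nuclear export receptor, fell by 0.79 in mRNA and by 1.42 in RPF on the log2 scale. PARP1, which ADP-ribosylates chromatin proteins, fell by 0.97 and by 0.73. GSDMD, which forms pores during pyroptosis, fell by 1.25 in mRNA, and CASP1, which cuts GSDMD, fell by 0.81 in mRNA and 0.83 in RPF. KAT2B, an acetyltransferase, was the gene of this list that rose, by 0.69.

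HMGB2 is also known as a component of the SET complex, and of its 5 other subunits on the list 4 fell in mRNA and 3 of the 4 tested fell in RPF, beside 37.0% and 26.9% of all genes. SET fell from 334 ± 13.3 to 164 ± 11.1 CPM, with log2 fold changes of -1.02 in mRNA and -1.45 in RPF. ANP32A fell by 1.17 in mRNA, and APEX1, an endonuclease of base excision repair, by 0.76 in mRNA and 0.61 in RPF. NME1 fell by 0.32 in mRNA.

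Linker histones, with which HMG proteins compete on nucleosomes, fell in RPF for 5 of 7 genes and rose for 0, with a median log2 fold change of -2.51, beside 26.9% lower and 27.5% higher of all genes. Most mRNAs of this group end in a stem loop and not in a poly(A) tail, so that only 3 of the 7 were tested in poly(A)-enriched mRNA. HIST1H1B footprints fell from 608 ± 16.2 to 92.0 ± 12.1 CPM and those of HIST1H1E from 543 ± 126 to 94.1 ± 12.8 CPM, while their mRNA did not exceed 0.913 CPM in any library. HIST1H1C rose from 13.6 ± 0.37 to 63.2 ± 4.88 CPM in mRNA and fell from 732 ± 24.2 to 285 ± 39.4 CPM in RPF. Its mRNA value covers poly(A)-enriched RNA alone and may leave out RNA of this gene that ends in a stem loop. H1F0 and H1FX, which have poly(A) tails, fell by 0.44 and 0.64 in mRNA, and had RPF changes of -0.41 (adjusted p of 0.290) and -0.27 (adjusted p of 0.307).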

How the data were processed

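Deposited tables gave, for each symbol and library, the reads that the authors assigned to 5′ UTR, CDS and 3′ UTR. These deposited values were taken as estimated counts, since some were fractions, and were rounded after regions had been summed. They were treated as not scaled to depth, since library totals differed widely, from 54421 to 1718521 for Ribo-seq CDS. The submitters' processing notes name cutadapt 1.18, Bowtie 1.0.1, SAMtools 1.8 and DESeq2 1.22.2. The genome build, annotation, strand rule and handling of reads with several placements are not given in the sources used here. RNA-seq read depths were 7902427 to 14144455 and Ribo-seq CDS depths 54421 to 1718521 per library; limits from these depths cover counting error only.

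Groups came from the sample titles. Symbols with a CDS read in some library (16451) were tested with edgeR 4.0.16 (glmQLFit, glmQLFTest, filterByExpr, TMM, R 4.3.3), in mRNA, RPF, CDS and 3′ UTR over 6 libraries each, in TE by the interaction of library type and state over 12 libraries with the lysate as block, and in 3′ UTR to CDS by the interaction of region and state with the library as block. P-values were adjusted by Benjamini-Hochberg over all genes tested, with a threshold of 0.15. The tests recovered 95.7% of genes simulated with a log2 change of 2, and 32.2% of those with 1, in the RPF comparison on 7556 genes, where 18.9% of calls were false. In TE, 28% of genes simulated with a log2 change of 1 were recovered. The simulation set a fixed dispersion for all genes of a layer and no lysate effect, so these shares hold for that assumed noise only. HMGB1 ratios added 0.5 to counts and used exact permutation tests (SciPy 1.17.1). No pair of replicates was a duplicate, with chi-square values per degree of freedom from 1.32 to 10.3. Ribo-seq and RNA-seq of a lysate were paired by the protocol, although their deviations from group means correlated only between -0.05 and 0.07 across genes.

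Copies of coding windows were counted by exact matching, on both strands, to the 24 chromosomes of GRCh37 with GENCODE v44 transcripts lifted to that build. The named genes were all members, the 5 nearest to HMGB1, and up to 4 called genes of largest mRNA change per list whose groups do not overlap; SOX9, AGER, TLR2, KAT2B, HMG20B, HMGXB4, PRKCA, DICER1, LIN28A, LIN28B, HIST1H1B, HIST1H1E and the absent cell type markers were named after their values were seen. The members, lists and alternatives were chosen with earlier results of these data known. Alternatives were DESeq2 1.42.0, other scaling factors, filters and rounding, replicates left out, blocks, both shallow lysates left out, mRNA as CDS reads and pseudogene reads added. Amino acid sequences were not used here.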

Additional observations from a re-analysis of the deposited data

Results flagged for a closer look

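Reads were also assigned to non-coding entries named after members, which no comparison above used, and 5 of them held more RNA-seq reads over the 6 libraries than the limit of 3 that a count of 0 allows. HMGN2P46 held 919 reads, of which 691 lay in Pro and 228 in Sen, and 114 footprints. HMGB3P1 held 125 RNA-seq reads, 86.3 in Pro and 38.8 in Sen, and 36 footprints. HMGA1P7 held 47.3 RNA-seq reads, 20.3 in Pro and 27.0 in Sen, and 39.3 footprints. HMGA2-AS1 held 68.7 RNA-seq reads, 28.2 in Pro and 40.5 in Sen, and 0 footprints. HMGN3-AS1 held 74.0 RNA-seq reads, 41 in Pro and 33 in Sen, and 3 footprints. Differences between the states were not tested for these entries, and without the strand rule of the counting, reads of a gene and of its antisense partner cannot be told apart. HMGN2P46, HMGB3P1 and HMGA1P7 were the only pseudogene entries named after members. Adding their reads to their parents left 8 members called in mRNA and 8 in RPF. The other members, HMGB1 and HMGN1 among them, gained no reads, so this cannot show the part of pseudogene reads for them.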

How the results depend on the processing

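Of the member fold changes under each alternative, 623 kept their direction and side of the threshold, 30 lost and 17 gained a call, and 25 turned sign, 0 of which were called under the settings of the report. In RPF, 5 members were called with DESeq2 and 1 under a filter of 10 counts in each library, where HMGA1 alone was tested. In TE, 0 members were called with DESeq2 and under that filter, and 0 to 3 when 1 replicate was left out. For the 3′ UTR to CDS ratio, 0 members were called with DESeq2 and with library totals, and 0 to 1 when 1 replicate was left out. The causes of these changes were not tested. Without both shallow lysates, 8 members were called in RPF and 3 in TE.

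With library totals, HMGA1 mRNA turned to -0.094, HMGA1 CDS to -0.029, HMGN4 CDS to -0.046 and HMGB2 TE to -0.073. HMGB2 TE was also negative with DESeq2 (-0.063), RLE factors (-0.040), a filter of 1 read (-0.042), unrounded values (-0.0090), no lysate block (-0.083), both shallow lysates left out (-0.0057) and CDS reads alone (-0.013). When 1 replicate was left out, values ranged from -0.062 to 0.078 for HMGA1 mRNA, from -0.071 to 0.11 for HMGA1 CDS, from -0.056 to 0.11 for HMGN4 CDS and from -0.53 to 0.26 for HMGB2 TE. For the 3′ UTR to CDS ratio they ranged from -0.0013 to 0.70 for HMGB2, from -0.097 to 0.050 for HMGN1 and from -0.90 to 0.25 for HMGN3. The ratio of HMGB1 to HMGB3 turned to 0.24 in mRNA with CDS reads alone and to -0.067 in RPF with a pseudocount of 1. When 1 replicate was left out, RPF ratios of HMGB1 ranged from -0.26 to 0.28 against HMGB3, from -0.61 to 0.38 against HMGN1 and from -0.16 to 0.086 against HMGN4.

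Over all genes, RPF calls numbered 4088, against 1164 with DESeq2, 2681 without Sen 1 and 610 under the filter of 10 counts. TE calls numbered 751, against 28 with DESeq2, 428 under the filter of 1 read, 236 under that of 10 counts, 1339 without the lysate block, 1183 without both shallow lysates and 150 to 1146 when 1 replicate was left out. Calls for the 3′ UTR to CDS ratio numbered 243, against 125 with DESeq2 and 128, 145 and 138 without Pro 2, Sen 1 and Sen 3. With library totals, the split of lower and higher calls went from 4729 and 4684 to 5689 and 3861 in mRNA, from 2022 and 2066 to 2575 and 1650 in RPF, from 279 and 472 to 492 and 388 in TE, from 81 and 162 to 142 and 112 for the 3′ UTR to CDS ratio, and from 2767 and 2688 to 3979 and 1940 in 3′ UTR reads. In TE it was 378 and 416 with RLE factors and 22 and 6 with DESeq2.

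Deviations of samples with the same number correlated between the states with r from -0.0731 to 0.0893. Libraries of the same lysate, which the protocol pairs, correlated no better (r from -0.0544 to 0.0706). The check therefore cannot show whether the numbers pair samples between the states. With a replicate block, 8 members were called in mRNA and 7 in RPF, of 9425 and 2336 genes, and HMGN3 RPF, at an adjusted p of 0.320 in edgeR, was no longer called.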
